A study of Mus musculus with 18 samples.

Results

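Yap and Taz are transcriptional coactivators, and the Tead proteins are the DNA-binding factors through which they reach most of their target genes. The 10 genes described here are the coactivator genes Yap1 and Wwtr1 (which encodes Taz), the 4 factors Tead1, Tead2, Tead3 and Tead4, and the target genes Ctgf (current symbol Ccn2), Cyr61 (current symbol Ccn1), Ankrd1 and Amotl2. They were taken by name from the 35275 genes measured, without regard to their level, and all 10 were found. RNA-seq had been run on 18 libraries of C2C12, an established mouse myoblast line known to form myotubes in low serum. The samples were control cells, labelled wild-type, cells overexpressing the spliced form of MUNC (MUNC spliced) and cells overexpressing its genomic form (MUNC genomic), where MUNC is a noncoding RNA encoded upstream of Myod1, a master gene of the muscle lineage. The growth protocol shared by all groups calls the cells PAX7-negative. Cells in growth medium (GM) were kept in 20% fetal bovine serum and taken at about 80% confluency, and cells labelled DM3 had spent 3 days in 2% horse serum. Each of the 6 groups had 3 libraries that the labels call biological replicates. The labels do not say whether the overexpressing cells were clones or pools, or which promoter drove MUNC. If the replicates came from 1 culture, p-values measure only the spread between these samples.

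In the Hippo pathway, the kinases Mst1 and Mst2 activate Lats1 and Lats2, which phosphorylate Yap and Taz and keep them in the cytoplasm. When the kinases are inactive, as on stiff or open substrates and in fresh serum, Yap and Taz enter the nucleus and act on Tead-bound promoters and enhancers. In muscle, Tead factors bind the M-CAT element found in many muscle genes, Yap keeps myoblasts dividing, and Tead4 is known as a target of Myod1. Ctgf and Cyr61 encode secreted matricellular proteins, Ankrd1 encodes a sarcomeric and nuclear ankyrin-repeat protein, and Amotl2 encodes an angiomotin that binds Yap and restrains it. RNA-seq reads the RNA of these genes and not the phosphorylation or location of the proteins.

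The sequences below show the core of the Tead (M-CAT) motif near the start sites of target genes and coactivator genes. RefSeq promoter windows on GRCm38.p6 (mm10) were at hand for 7 of the 10 genes, and the 250 bases before each start were searched for GGAATG on both strands (CATTCC on the opposite strand). At least 1 match was found for 6 of these 7 genes, all but Tead2, and 14.4% of all 27025 genes had one. Wwtr1 had 2 such windows and Tead3 had 3, so these genes had more sequence searched. Among all 32851 windows of the same length, 12.6% held the motif and 1.02% held it 2 or more times. Each sequence is printed 5′ to 3′ on the strand of its gene, in lower case with the motif in capitals. Cyr61 is shown over the whole 250 bases before its start, with 1 match on the opposite strand that begins 103 bases before the start (chr3:145649986-145650235, minus strand). For Ankrd1 all 250 bases before the start lie in annotated exons of other transcripts of the gene, and so do both its matches. For Amotl2, 136 of the 250 bases lie in such exons. The other target genes and the coactivator genes are shown as 30 bases around the match (the Tead3 matches are not shown). They are Ankrd1 at 210 bases (chr19:36120037-36120066, minus strand) and at 123 bases before the start (chr19:36119950-36119979, minus strand), Amotl2 at 65 bases (chr9:102717727-102717756, plus strand), Yap1 at 141 bases (chr9:8004720-8004749, minus strand) and Wwtr1 at 136 bases (chr3:57576029-57576058, minus strand). A match is a description of these letters and not evidence of binding.
Cyr61: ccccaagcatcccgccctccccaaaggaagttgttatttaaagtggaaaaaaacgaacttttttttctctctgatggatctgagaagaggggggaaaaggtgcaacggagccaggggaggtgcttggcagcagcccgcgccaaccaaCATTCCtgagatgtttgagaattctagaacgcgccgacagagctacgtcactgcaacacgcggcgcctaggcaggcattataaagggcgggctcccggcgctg
Ankrd1, distal match: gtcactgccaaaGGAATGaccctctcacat
Ankrd1, proximal match: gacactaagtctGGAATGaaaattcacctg
Amotl2: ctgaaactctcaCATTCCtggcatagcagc
Yap1: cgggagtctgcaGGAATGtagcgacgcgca
Wwtr1: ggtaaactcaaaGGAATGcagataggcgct

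The values are FPM, read counts scaled by the authors for the size of each library, which held 38416702 to 68788327 reads. The 10 genes had between 254 and 88221 reads in a library. Myotube markers were low in control DM3 (a summed 0.883 to 1.01 FPM over 6 markers, against 0.277 to 0.529 FPM in GM, and Myog at 0.344 ± 0.132 FPM, SD, n = 3). They summed to 95 to 484 FPM in MUNC spliced DM3 and to 19.8 to 38.6 FPM in MUNC genomic DM3. In MUNC spliced DM3 the means were 106 FPM for Myog, 79.8 for Myh3, 30.3 for Mymk, 7.19 for Mymx and 2.64 for Ckm. Ckm averaged 3.52 FPM in MUNC genomic DM3, and the myotube marker Actn2 had at most 10 reads in any library. Myod1, a defining myoblast marker, had at most 12 reads in any control library, while Myf5 stood at 71.8 ± 8.50 FPM (SD, n = 3) in control GM. The other myoblast markers Itga7, Cdh15, Des and Chrna1 averaged 174, 46.3, 24.2 and 14.9 FPM there. In MUNC spliced and MUNC genomic GM, Des averaged 27.8 and 476 FPM, Cdh15 170 and 22.9 FPM, and Myf5 58.7 and 26.7 FPM. Myod1 averaged 12.4 and 3.84 FPM in these groups, Chrna1 141 and 37.5 FPM, and Itga7 243 and 136 FPM. In MUNC spliced and MUNC genomic DM3, Myod1 averaged 28.6 and 18.4 FPM. The satellite-cell marker Pax7 was near 0 throughout, with at most 0.147 FPM. Among 6 fibroblast markers (5 passed the filter, sums of 3279 to 14868 FPM), Col1a1 and Col3a1 made up most of each sum. Group means of Dcn ran from 6.19 FPM (MUNC genomic GM) to 396 FPM (MUNC spliced DM3). Those of Pdgfra ran from 7.24 FPM (control GM) to 26.1 FPM (MUNC genomic DM3). Lum was lowest in control GM (mean 0.129 FPM) and highest in MUNC genomic DM3 (mean 8.71 FPM). Thy1 had at most 2 reads in a library, and adipocyte and macrophage markers were near 0. Proliferation markers (Mki67, Top2a, Ccnb1 and Cdk1) summed to 1400 to 2476 FPM in GM and to 174 to 780 FPM in DM3. Replicate 1 of MUNC spliced DM3 stood apart, with 192 FPM of Mki67 and 226 FPM of Myog where the lowest library of its group had 42.3 and 41.0 FPM. In RNA from whole cultures, fewer cells of a type and less RNA per cell cannot be told apart. MUNC itself was not analysed here, so its overexpression was not checked.

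Levels can be compared between genes only per length, as FPM per kilobase of exon. Averaged over the 18 libraries, the target genes led, with Cyr61 at 393, Ankrd1 at 217, Ctgf at 81.4 and Amotl2 at 48.1 FPM per kilobase. Wwtr1 followed at 43.4 FPM per kilobase, ahead of Tead1 at 17.2 and Yap1 at 16.8. Tead2 stood at 9.34, Tead3 at 3.64 and Tead4 at 2.72 FPM per kilobase. Ctgf varied most between libraries, with its highest FPM 10.1 times its lowest, and Yap1 varied least, at 1.5 times. All 10 genes were among the 13869 tested, those that reached a minimum level (0.5 FPM in at least 3 libraries).

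**Figure D1:**
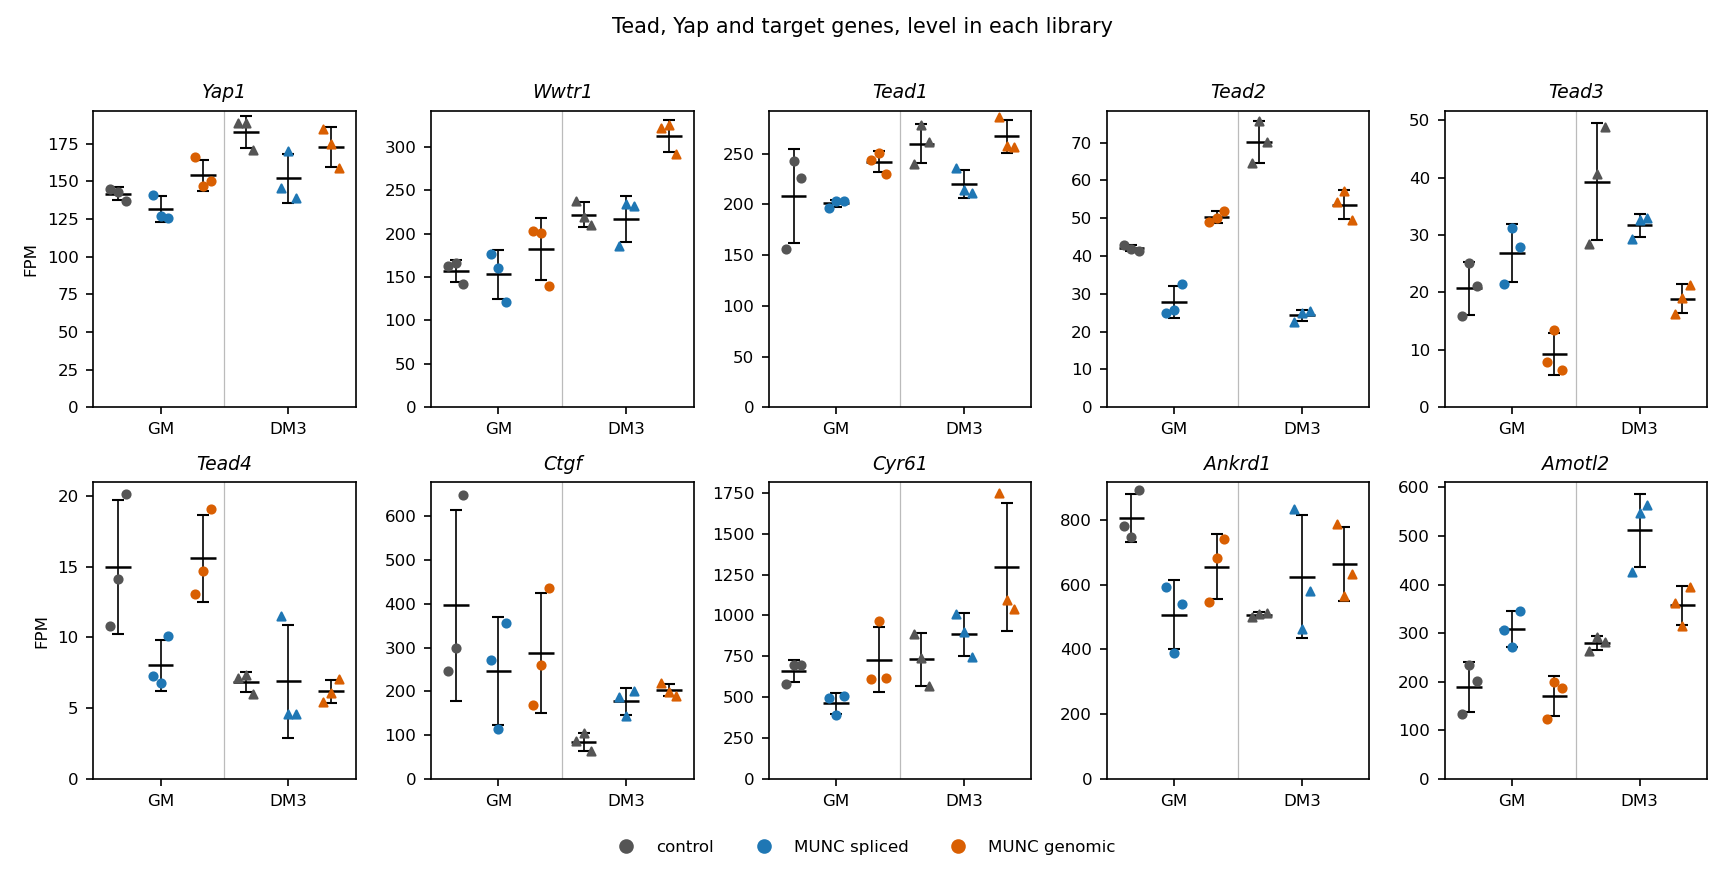
Level of each of the 10 genes in FPM (linear axis from 0) in every library, with GM as circles and DM3 as triangles; bars are the mean and SD of 3 libraries. In control cells the GM libraries hold 246 to 648 FPM of Ctgf and the DM3 libraries 64.2 to 105 FPM, and Tead2 in MUNC spliced cells lies at 22.6 to 32.7 FPM in both media.

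The first question was how these genes changed as each kind of cell passed from GM to DM3. In control cells 9 of the 10 genes changed, 6 upward and 3 downward, by limma on log2(FPM + 1) at a Benjamini-Hochberg adjusted p under 0.05. Among all tested genes 58.2% were called in that comparison, 29.6% higher and 28.6% lower. In MUNC spliced cells 3 rose, against a background of 35.6% called (17.2% higher, 18.4% lower), and 0 fell by limma, at an unadjusted p under 0.05 too, and by edgeR and DESeq2. In MUNC genomic cells 4 rose and 1 fell, where 51.4% of tested genes were called (26.3% higher, 25.1% lower). The ranges of the 2 media were apart for 8, 4 and 6 of the 10 genes respectively, and for 62.4%, 44.6% and 62.8% of all tested genes. The counts in MUNC spliced and MUNC genomic cells thus lay near the share for all genes. Median log2 changes of the 10 genes were 0.35, 0.22 and 0.15, beside 0.02, -0.01 and 0.02 over all tested genes. All 4 proliferation markers fell in each of the 3 comparisons, with median log2 changes of -3.16, -2.36 and -3.07, and their part in these results was not tested.

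The second question was how overexpressing cells differed from control cells in the same medium. In GM, 4 of the 10 genes differed in MUNC spliced cells (1 higher, 3 lower; 35.5% of tested genes were called, 18.2% higher and 17.3% lower). In MUNC genomic GM 1 was lower, where 26.8% were called (12.2% higher, 14.5% lower). In DM3, 4 differed in MUNC spliced cells (2 higher, 2 lower; background 43.3%, with 22.3% higher and 21.0% lower). In MUNC genomic DM3, 5 differed (3 higher, 2 lower; background 40.3%, with 19.3% higher and 20.9% lower). Against control GM, the ranges were apart for 5 genes in MUNC spliced and 4 in MUNC genomic cells (43.6% and 37.9% of all tested genes), and against control DM3 for 5 and 7 genes (53.0% and 56.9%). The median log2 differences of the 10 genes were -0.31, 0.1, -0.07 and 0.19 in the same order, beside -0.02, -0.03, 0.01 and -0.01 over all tested genes. Both MUNC comparisons in a medium share the same control libraries. Without replicate 1 of MUNC spliced DM3, 2 genes rather than 4 differed from control DM3. The same 2 calls, of Yap1 and Ctgf, were also lost without replicate 3 of MUNC spliced DM3 or replicate 1 of control DM3. Each other library left out lost 1 of them. All log2 changes below are of FPM + 1.

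**Figure D2:**
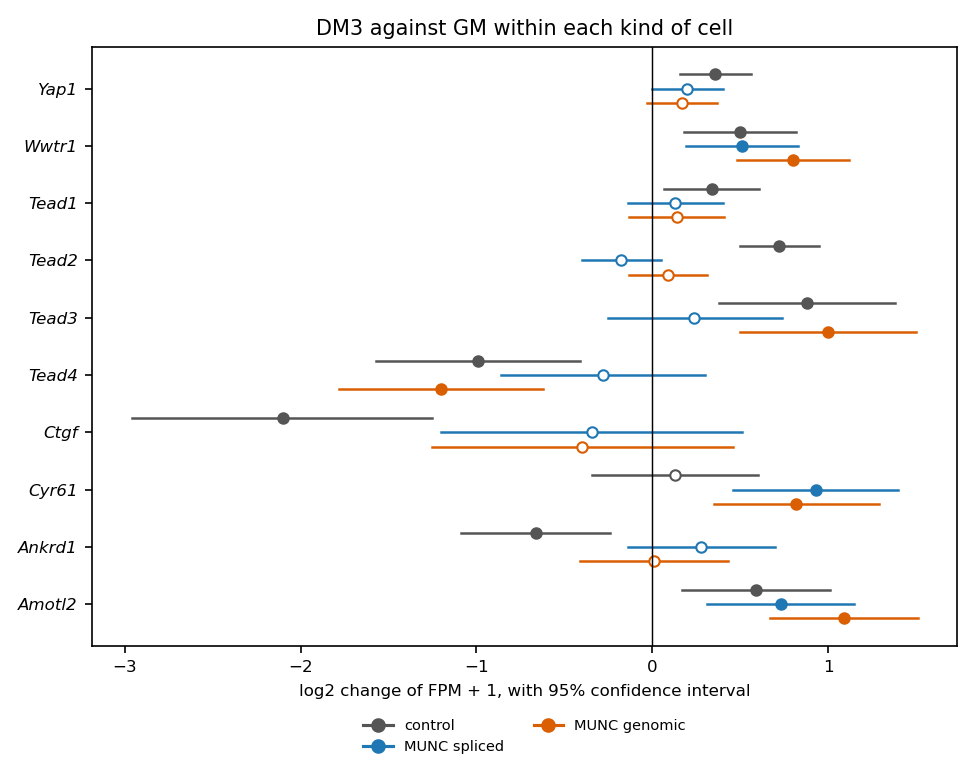
Log2 change of FPM + 1 from GM to DM3 (horizontal axis) for each gene in control, MUNC spliced and MUNC genomic cells, with the 95% confidence interval from limma; filled points passed an adjusted p of 0.05. Ctgf falls furthest in control cells (-2.10), where Cyr61 is near 0 (0.13) while it lies at 0.93 and 0.82 in the overexpressing cells.

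Of the coactivator genes, Yap1 rose modestly in control cells and Wwtr1 rose in all 3 kinds of cell. Yap1 (GRCm38 chr9:7931999-8004596, minus strand) stood at 145, 143 and 137 FPM in control GM, at 141, 127 and 126 FPM in MUNC spliced GM and at 166, 147 and 150 FPM in MUNC genomic GM (replicates 1, 2 and 3). In DM3 it stood at 189, 189 and 171 FPM in control, 146, 170 and 139 FPM in MUNC spliced and 185, 175 and 159 FPM in MUNC genomic cells. All control DM3 libraries lay above all control GM libraries, and the GM and DM3 libraries overlapped in both kinds of MUNC cell. The rise in control cells was 1.29-fold (log2 change 0.36 ± 0.09 SE, limma adjusted p = 0.00369). In MUNC spliced cells the log2 change of 0.20 did not pass with limma (adjusted p = 0.107) and passed with DESeq2 (adjusted p = 0.0392), and in MUNC genomic cells the change was 0.17 (limma adjusted p = 0.155). The difference from the control change was not called for either (log2 -0.16, limma adjusted p = 0.442, and log2 -0.20, limma adjusted p = 0.423). In MUNC spliced DM3, Yap1 was lower than in control DM3 (log2 change -0.27, limma adjusted p = 0.0284), a call lost under equal library sums, under quantile normalization, in a fit of those groups alone, and without replicate 1 or 3 of MUNC spliced DM3 or replicate 1 or 2 of control DM3. The order of group means ran from control DM3 (183 FPM) to MUNC spliced GM (132 FPM), and each neighbour in it overlapped the next.

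Wwtr1 (chr3:57455649-57575910, minus strand) stood at 163, 166 and 142 FPM in control GM, 177, 161 and 121 FPM in MUNC spliced GM and 203, 201 and 140 FPM in MUNC genomic GM. In DM3 its levels were 238, 219 and 210 FPM in control, 186, 234 and 232 FPM in MUNC spliced and 322, 325 and 292 FPM in MUNC genomic cells. Every DM3 library exceeded every GM library of its own kind of cell, and the MUNC genomic DM3 libraries exceeded all the others. The log2 rise was 0.50 ± 0.15 in control (limma adjusted p = 0.0102), 0.51 ± 0.15 in MUNC spliced (limma adjusted p = 0.0163) and 0.80 ± 0.15 in MUNC genomic cells (limma adjusted p = 0.000411). The rise in MUNC spliced cells was not called in a fit of those groups alone, nor without replicate 2 or 3 of MUNC spliced DM3 or replicate 3 of MUNC spliced GM. In DM3, MUNC genomic cells exceeded control by a log2 0.49 (limma adjusted p = 0.0172) and MUNC spliced cells lay below MUNC genomic cells (log2 -0.53, limma adjusted p = 0.00993). The former was lost without replicate 3 of control DM3 or replicate 1 or 2 of MUNC genomic DM3, and the latter without replicate 1 of MUNC spliced DM3. The difference between kinds of cell in the rise itself was not called (log2 0.30, limma adjusted p = 0.454 for MUNC genomic against control). Per kilobase, the ratio of Yap1 to Wwtr1 went from 0.468 ± 0.0267 (SD, n = 3) to 0.425 ± 0.0179 in control cells and from 0.450 ± 0.0897 to 0.286 ± 0.00993 in MUNC genomic cells.

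Among the DNA-binding factors the 4 genes moved differently, and Tead2 separated the kinds of cell most clearly. Tead1 (chr7:112679318-112906807, plus strand), the most abundant of them, stood at 156, 243 and 226 FPM in control GM, 196, 203 and 203 FPM in MUNC spliced GM and 244, 251 and 230 FPM in MUNC genomic GM. Its DM3 levels were 240, 278 and 262 FPM in control, 236, 214 and 211 FPM in MUNC spliced and 286, 258 and 257 FPM in MUNC genomic cells. Replicate 1 of control GM was the lowest of all 18 libraries, and replicate 2 reached the control DM3 range. Tead1 was called higher in control DM3 than in GM (log2 0.34 ± 0.13, limma adjusted p = 0.0313), but not without a filter on low values, in a fit of those groups alone, by edgeR (adjusted p = 0.0706), or without replicate 2 or 3 of control DM3 or replicate 1 of control GM. No other comparison called it, and every neighbour in the order of its group means overlapped the next.

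Tead2 (chr7:45215753-45233644, plus strand) stood at 42.9, 41.8 and 41.3 FPM in control GM, 24.8, 25.8 and 32.7 FPM in MUNC spliced GM and 48.9, 50.0 and 52.0 FPM in MUNC genomic GM. In DM3 it reached 64.6, 75.8 and 70.1 FPM in control, 22.6, 25 and 25.5 FPM in MUNC spliced and 54.2, 57.2 and 49.5 FPM in MUNC genomic cells. The 6 MUNC spliced libraries were the lowest of all, and the 3 control DM3 libraries were the highest. In control cells Tead2 rose 1.65-fold (log2 0.72 ± 0.11, limma adjusted p = 2.62e-05). It did not pass the test in MUNC spliced cells (log2 change -0.18, 95% interval -0.40 to 0.05) or in MUNC genomic cells (0.09, interval -0.13 to 0.31). The difference between these changes was itself called, at a log2 -0.90 ± 0.15 for MUNC spliced against control (limma adjusted p = 0.00154) and -0.63 ± 0.15 for MUNC genomic against control (limma adjusted p = 0.0131). Tests of such differences called 2 of the 10 genes for MUNC spliced cells, where 14.4% of all tested genes were called (7.43% higher, 6.94% lower), and 1 for MUNC genomic cells, where 8.81% were called (3.56% higher, 5.25% lower). Against control, Tead2 in MUNC spliced cells was 1.5-fold lower in GM (log2 -0.59, limma adjusted p = 0.00045) and 2.81-fold lower in DM3 (log2 -1.49, limma adjusted p = 1.66e-08). In MUNC genomic DM3 it was 1.30-fold lower than in control DM3 (log2 -0.38, limma adjusted p = 0.00841), while in GM the difference of 0.25 was not called by limma (adjusted p = 0.087) and was called by DESeq2 (adjusted p = 0.0323) and by limma under equal library sums or with the replicate number as a block (adjusted p = 0.0474 for the latter). The limma calls of Tead2 held in every fit that left out 1 library.

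Tead3 was lowest in MUNC genomic cells. Tead3 (chr17:28331671-28350817, minus strand) stood at 15.9, 25.2 and 21.1 FPM in control GM, 21.5, 31.3 and 27.9 FPM in MUNC spliced GM and 7.92, 13.4 and 6.57 FPM in MUNC genomic GM. In DM3 it stood at 28.5, 40.7 and 48.8 FPM in control, 29.4, 32.7 and 33.0 FPM in MUNC spliced and 16.2, 19.1 and 21.3 FPM in MUNC genomic cells. Each MUNC genomic library lay below each control library of the same medium. Relative to control, MUNC genomic cells were 2.16-fold lower in GM (log2 -1.11 ± 0.24, limma adjusted p = 0.00213) and 1.99-fold lower in DM3 (-1.0 ± 0.24, limma adjusted p = 0.00289). From GM to DM3 it rose 1.84-fold in control cells (limma adjusted p = 0.00433) and 2.0-fold in MUNC genomic cells (limma adjusted p = 0.00217), and it did not pass in MUNC spliced cells (log2 0.24, interval -0.25 to 0.74). The difference between these changes was not called (log2 -0.64, limma adjusted p = 0.207 for MUNC spliced).

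Tead4, the least abundant of the factors, fell in control and MUNC genomic cells. Tead4 (chr6:128224288-128300823, minus strand) stood at 10.8, 14.1 and 20.1 FPM in control GM, 7.24, 6.75 and 10.1 FPM in MUNC spliced GM and 13.1, 14.7 and 19.1 FPM in MUNC genomic GM. After 3 days of DM3 the levels were 7.16, 7.36 and 6.02 FPM in control, 11.5, 4.62 and 4.59 FPM in MUNC spliced and 5.42, 6.09 and 7.06 FPM in MUNC genomic cells. Every DM3 library lay below the GM libraries in control and MUNC genomic cells, and in MUNC spliced cells replicate 1 of DM3 exceeded every GM library. The fall was 1.99-fold in control (log2 -0.99 ± 0.27, limma adjusted p = 0.00555) and 2.3-fold in MUNC genomic cells (-1.2 ± 0.27, limma adjusted p = 0.00172). In MUNC spliced cells the log2 change was -0.28 (limma adjusted p = 0.443), and without replicate 1 of DM3, the library with the most Mki67 and Myog, it was -0.67 (limma adjusted p = 0.028). MUNC spliced GM was lower than control GM (log2 -0.80, limma adjusted p = 0.0318), a call lost without a low-value filter, under equal library sums, in a fit of those groups alone and without replicate 2 or 3 of control GM or replicate 1 or 2 of MUNC spliced GM.

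Expressed as a share of the summed Tead FPM per kilobase, the family's composition differed between the kinds of cell. In control cells Tead2 went from 28.5 ± 5.37% (SD, n = 3) in GM to 35.3 ± 0.997% in DM3, and Tead4 went from 13.2 ± 2.85% to 4.61 ± 0.711%. In MUNC spliced cells Tead2 held 21.6 ± 1.94% in GM and 18.3 ± 2.05% in DM3. In MUNC genomic cells Tead2 held 30.9 ± 1.02% and 31.6 ± 1.85%, and Tead3 held 4.04 ± 1.46% and 7.96 ± 1.27%. Tead1 held the largest share in all 18 libraries, from 44.5% to 58.6%. The sum of the 4 genes was 31.4 ± 4.83 FPM per kilobase in control GM, 41.6 ± 3.71 in control DM3, 26.8 ± 1.93 in MUNC spliced GM, 27.9 ± 1.49 in MUNC spliced DM3, 34.0 ± 0.998 in MUNC genomic GM and 35.4 ± 0.937 in MUNC genomic DM3. Control DM3 libraries, at 37.4 to 44.5, thus exceeded all MUNC libraries of either medium. These shares are descriptions and were not tested.

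**Figure D3:**
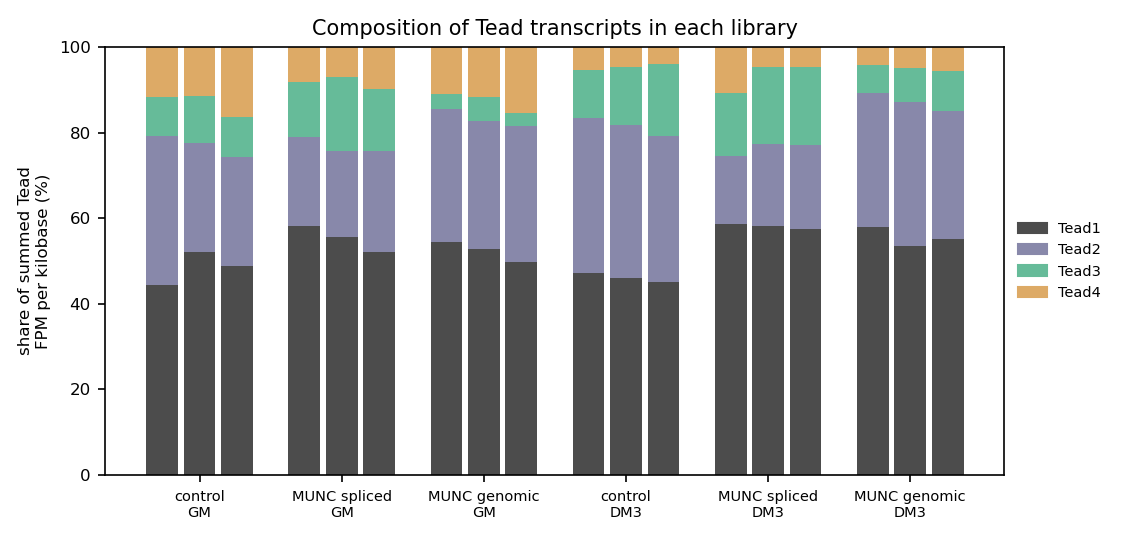
Share of each Tead gene in the summed Tead FPM per kilobase (vertical axis, percent), 1 bar per library in the order of replicates 1 to 3. Tead1 holds 44.5% to 58.6%, and the Tead4 share in control cells is smaller in DM3 (mean 4.61%) than in GM (13.2%).

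The target genes did not move together from GM to DM3. Ctgf (chr10:24595442-24598683, plus strand) stood at 246, 298 and 648 FPM in control GM, 271, 114 and 356 FPM in MUNC spliced GM and 168, 259 and 437 FPM in MUNC genomic GM. In DM3 it stood at 86.5, 105 and 64.2 FPM in control, 187, 143 and 201 FPM in MUNC spliced and 219, 199 and 190 FPM in MUNC genomic cells. The 3 control DM3 libraries were the lowest of all 18, and GM and DM3 overlapped in both kinds of MUNC cell. The fall in control cells was 4.30-fold (log2 -2.10 ± 0.40, limma adjusted p = 0.000344), from -2.38 to -1.68 when 1 library at a time was left out. In MUNC spliced cells the log2 change was -0.34 (interval -1.2 to 0.51) and in MUNC genomic cells -0.40 (interval -1.25 to 0.46), neither of which passed. The difference from the control change, 1.76 ± 0.57 for MUNC spliced and 1.71 ± 0.57 for MUNC genomic, was not called by limma (adjusted p = 0.05, just above the threshold, and 0.0784). DESeq2 called both (adjusted p = 0.0155 and 0.0295), as did limma for MUNC spliced without replicate 1 or 2 of control GM or replicate 3 of MUNC spliced GM, and for MUNC genomic without replicate 3 of MUNC genomic GM.

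Within DM3, Ctgf was 2.09-fold higher in MUNC spliced than in control cells (log2 1.06 ± 0.40, limma adjusted p = 0.0438) and 2.40-fold higher in MUNC genomic than in control cells (1.27 ± 0.40, limma adjusted p = 0.0198), with no overlap in either case. The MUNC spliced call was lost without a low-value filter, without replicate 1 or 3 of control DM3 and without any 1 of the MUNC spliced DM3 libraries. The MUNC genomic call was lost without replicate 3 of control DM3 or replicate 1 of MUNC genomic DM3. The 2 kinds of MUNC cell differed by a log2 -0.21 in DM3 (interval -1.06 to 0.65). In GM neither differed from control by the test, and control GM itself spanned 246 to 648 FPM.

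Cyr61, a secreted relative of Ctgf whose upstream sequence is printed above, did not pass the test in control cells and rose in both kinds of MUNC cell. Cyr61 (chr3:145646976-145649981, minus strand) stood at 580, 694 and 699 FPM in control GM, 496, 390 and 504 FPM in MUNC spliced GM and 611, 963 and 617 FPM in MUNC genomic GM. The DM3 libraries held 887, 739 and 566 FPM in control, 1009, 897 and 747 FPM in MUNC spliced and 1746, 1096 and 1042 FPM in MUNC genomic cells. The MUNC genomic DM3 libraries were the 3 highest of all, and the control libraries of the 2 media overlapped. The control change was 0.13 (interval -0.34 to 0.60, limma adjusted p = 0.635). It rose 1.91-fold in MUNC spliced cells (log2 0.93 ± 0.22, limma adjusted p = 0.00425) and 1.76-fold in MUNC genomic cells (0.82 ± 0.22, limma adjusted p = 0.00586). The difference from the control change was not called (log2 0.80, limma adjusted p = 0.0975, and 0.69, limma adjusted p = 0.211). In DM3, MUNC genomic cells exceeded control 1.75-fold (log2 0.81, limma adjusted p = 0.00824), a call lost without replicate 3 of control DM3 or replicate 1 of MUNC genomic DM3. In GM, MUNC spliced cells lay below every control library but did not pass (log2 -0.51, limma adjusted p = 0.0853). Per kilobase, Ctgf stood at 0.419 ± 0.203 of Cyr61 (SD, n = 3) in control GM and at 0.0831 ± 0.0160 in control DM3. Replicates 1 to 3 of control GM had ratios of 0.3, 0.303 and 0.654. The same ratio went from 0.364 ± 0.148 in GM to 0.145 ± 0.0406 in DM3 in MUNC spliced cells. In MUNC genomic cells it went from 0.294 ± 0.178 to 0.115 ± 0.0232.

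Ankrd1 fell modestly in control cells. Ankrd1 (chr19:36111961-36120099, minus strand) stood at 780, 747 and 891 FPM in control GM, 592, 388 and 541 FPM in MUNC spliced GM and 545, 682 and 742 FPM in MUNC genomic GM. In DM3 it stood at 499, 510 and 512 FPM in control, 833, 462 and 580 FPM in MUNC spliced and 788, 566 and 634 FPM in MUNC genomic cells. Each control GM library lay above every control DM3 library and above every GM library of the MUNC cells. The control fall was 1.58-fold (log2 -0.66 ± 0.20, limma adjusted p = 0.00927), while the change was 0.28 in MUNC spliced (limma adjusted p = 0.289) and 0.01 in MUNC genomic cells (limma adjusted p = 0.971). The difference from control was called for MUNC spliced cells (log2 0.94 ± 0.28, limma adjusted p = 0.0356) and not for MUNC genomic cells (0.68, limma adjusted p = 0.165). The former call was lost without a low-value filter, under quantile normalization, in a fit of those groups alone and without any 1 of 6 libraries, namely replicates 2 and 3 of control DM3, replicates 1 and 3 of control GM, replicate 1 of MUNC spliced DM3 and replicate 2 of MUNC spliced GM. In GM, MUNC spliced cells were 1.61-fold lower than control (log2 -0.69, limma adjusted p = 0.0138), lost under quantile normalization and without replicate 3 of control GM or replicate 2 of MUNC spliced GM.

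Amotl2 rose in every kind of cell and was higher in MUNC spliced cells in both media. Amotl2 (chr9:102716672-102733418, plus strand) stood at 134, 235 and 202 FPM in control GM, 307, 272 and 345 FPM in MUNC spliced GM and 123, 200 and 188 FPM in MUNC genomic GM. DM3 levels were 263, 291 and 282 FPM in control, 426, 548 and 563 FPM in MUNC spliced and 361, 315 and 394 FPM in MUNC genomic cells. No GM library reached a DM3 library of its own kind of cell, and the MUNC spliced DM3 libraries were the 3 highest of all. The log2 rise was 0.59 ± 0.20 in control (limma adjusted p = 0.0184), 0.73 ± 0.20 in MUNC spliced (limma adjusted p = 0.00976) and 1.09 ± 0.20 in MUNC genomic cells (limma adjusted p = 0.000282). The control rise was lost without replicate 2 of control DM3 or replicate 1 of control GM. Against control, MUNC spliced cells were 1.65-fold higher in GM (limma adjusted p = 0.00984, lost without replicate 1 of control GM) and 1.82-fold higher in DM3 (limma adjusted p = 0.00224). Amotl2 in MUNC genomic cells did not pass against control in GM (log2 -0.15) or DM3 (0.35, limma adjusted p = 0.178), although all MUNC genomic DM3 libraries lay above all control DM3 libraries.

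The order of group means differed from gene to gene. Wwtr1 ran from MUNC genomic DM3 through control DM3, MUNC spliced DM3, MUNC genomic GM and control GM to MUNC spliced GM, and MUNC genomic DM3 alone was apart from its neighbour. Tead2 ran from control DM3 through MUNC genomic DM3, MUNC genomic GM, control GM and MUNC spliced GM to MUNC spliced DM3. Its neighbours overlapped between MUNC genomic DM3 and GM and between MUNC spliced GM and DM3, and were apart elsewhere. Tead3 ran from control DM3 through MUNC spliced DM3, MUNC spliced GM, control GM and MUNC genomic DM3 to MUNC genomic GM, which alone was apart. Tead4 had MUNC genomic GM and control GM at the top, with MUNC spliced GM and the 3 DM3 groups below them. Control GM was apart from its neighbour MUNC spliced GM, but it overlapped MUNC spliced DM3 (lowest control GM library 10.8 FPM, replicate 1 of MUNC spliced DM3 11.5 FPM). Ctgf had the GM groups above the DM3 groups, in the order control, MUNC genomic and MUNC spliced in GM and MUNC genomic, MUNC spliced and control in DM3, and control DM3 alone was apart. Cyr61 had MUNC genomic DM3 apart at the top and MUNC spliced GM apart at the bottom, with 4 groups between whose neighbours overlapped. Amotl2 had MUNC spliced DM3 apart at the top, then MUNC genomic DM3, MUNC spliced GM and control DM3, and apart from these control GM and MUNC genomic GM. Ankrd1 ran from control GM to control DM3 and MUNC spliced GM with overlap between all neighbours.

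**Figure D4:**
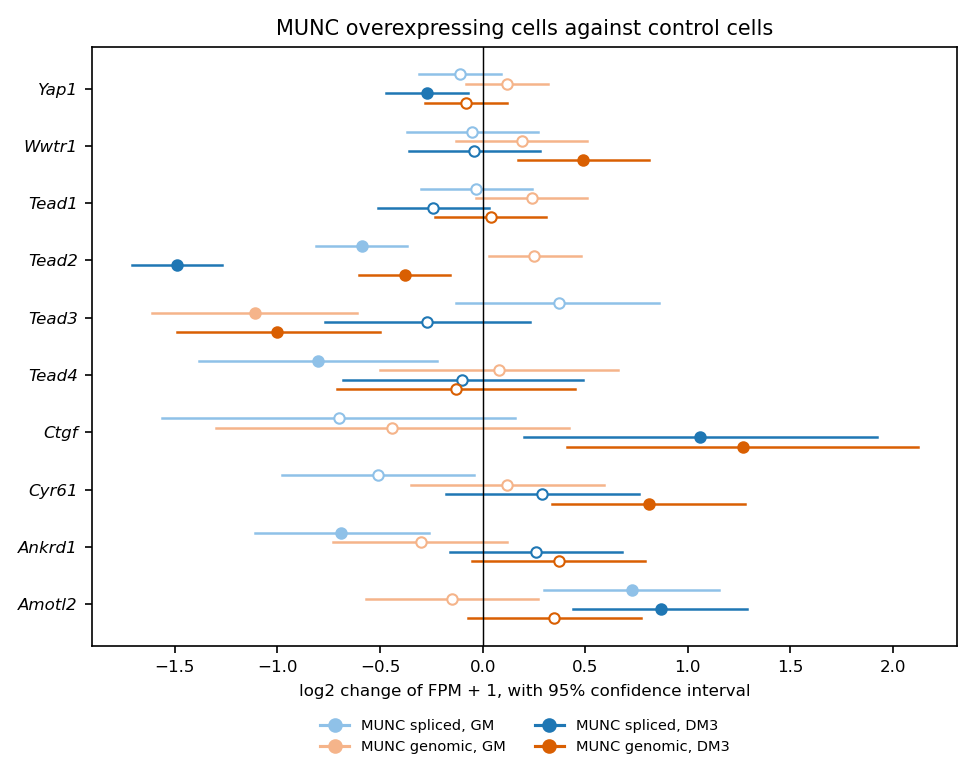
Log2 difference of FPM + 1 between MUNC spliced or MUNC genomic cells and control cells in the same medium (horizontal axis), with 95% confidence intervals; filled points passed an adjusted p of 0.05. Tead2 in MUNC spliced DM3 lies at -1.49, Tead3 in MUNC genomic cells at -1.11 and -1.0, and Ctgf in DM3 at 1.06 and 1.27.

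Set directly against MUNC genomic cells, MUNC spliced cells were higher in 2 of the 10 genes and lower in 3 in GM, and higher in 2 and lower in 2 in DM3. Of all tested genes, 35.8% were called in GM (19.9% higher, 16.0% lower) and 44.2% in DM3 (23.4% higher, 20.8% lower). Ranges were apart for 7 genes in GM and 6 in DM3, and for 45.7% and 57.2% of all tested genes. In GM, Tead3 was 2.79-fold higher in MUNC spliced cells (log2 1.48, limma adjusted p = 0.000128), Amotl2 was 1.84-fold higher (limma adjusted p = 0.00258) and Tead2 was 1.79-fold lower (limma adjusted p = 1.08e-05). Tead4 and Cyr61 were lower there, by log2 differences of -0.88 and -0.63 (limma adjusted p = 0.019 and 0.0356), and each call was lost when any of 3 libraries was left out (replicates 1 and 2 of MUNC spliced GM for both, with replicate 3 of MUNC genomic GM for Tead4 and its replicate 2 for Cyr61). In DM3, Tead2 was 2.15-fold lower in MUNC spliced cells (log2 -1.11, limma adjusted p = 3.03e-07) and Tead3 was 1.65-fold higher (limma adjusted p = 0.0196, lost without replicate 1 of MUNC genomic DM3 or replicate 2 or 3 of MUNC spliced DM3). Amotl2 was higher in MUNC spliced DM3 by a log2 0.52 (limma adjusted p = 0.0446), a call lost without a low-value filter and without any 1 of the MUNC genomic DM3 libraries or replicate 2 or 3 of MUNC spliced DM3.

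Cofactors that compete with or tether Yap and Tead were read from a list of 14 genes, of which 13 passed the filter. From GM to DM3 in control cells 6 rose and 4 fell, with a median log2 change of 0.32, where 58.2% of all tested genes were called (29.6% higher, 28.6% lower) and their median was 0.02. Amotl1, an angiomotin like Amotl2, rose by a log2 1.28 (304 ± 65.6 FPM in DM3, SD, n = 3; limma adjusted p = 0.000546), and the junction scaffold Tjp1 rose by 1.08 (limma adjusted p = 0.000408). Ywhae, a 14-3-3 protein of the family that holds phosphorylated Yap in the cytoplasm, fell (log2 -0.76, limma adjusted p = 0.000127). Amotl1 in DM3 stood at 203 ± 46.0 FPM in MUNC spliced and 432 ± 8.22 FPM in MUNC genomic cells.

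The vestigial-like genes, whose products bind Tead in place of Yap, differed between the kinds of cell. Vgll2, the muscle member, had no reads in any of the 6 control libraries. It stood at 12.8 ± 2.28 FPM (SD, n = 3) in MUNC spliced GM, at least 240-fold higher than the limit of 3 reads per control GM library, and at 3.43 ± 1.37 FPM in MUNC spliced DM3, at least 57-fold higher. In MUNC genomic GM it stood at 1.52 ± 0.213 FPM, at least 28-fold higher. Vgll2 fell from GM to DM3 in MUNC spliced cells (log2 -1.67, limma adjusted p = 9.83e-06). Vgll3 stood at 53.7 ± 7.85 FPM in control, 75.8 ± 18.4 FPM in MUNC spliced and 23.0 ± 0.282 FPM in MUNC genomic GM. In DM3 its levels were 66.9 ± 3.87, 120 ± 16.5 and 35.5 ± 4.34 FPM in the same order. Against control DM3, Vgll3 was higher in MUNC spliced (log2 0.82, limma adjusted p = 0.000372) and lower in MUNC genomic cells (log2 -0.90, limma adjusted p = 0.000157). Vgll4, a repressor of Tead activity, was higher than control in GM in both kinds of MUNC cell (34.6 ± 2.96 and 30.7 ± 2.22 against 19.4 ± 3.07 FPM; limma adjusted p = 5.21e-05 and 0.000499). Vgll1 had no reads in any library.

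Hippo kinases and upstream regulators made up a list of 25 genes, all of them tested. From GM to DM3 in control cells 5 rose, 4 fell and 16 were not called, with a median log2 change of -0.07, where 58.2% of all tested genes were called and their median was 0.02. The protocadherin gene Fat4 rose by a log2 1.07 (18.6 ± 2.27 against 8.32 ± 0.699 FPM; limma adjusted p = 0.0011), and the kinase gene Taok3 rose by 0.73. The striatin gene Strn4 and the scaffold gene Wwc2 changed by -0.56 and -0.52. Fat4 was higher still in MUNC spliced cells, with GM levels of 34.5 ± 3.34 FPM and DM3 levels of 50.9 ± 6.72 FPM (log2 1.93 and 1.40 against control, limma adjusted p = 1.39e-05 and 0.000188). In MUNC genomic DM3, 6 of the 25 were higher than in control DM3 and 4 were lower, a share near the 40.3% called among all tested genes. Stk3, which encodes the kinase Mst2, stood at 151 ± 20.8 FPM there and at 65.0 ± 6.54 FPM in control DM3 (log2 1.2, limma adjusted p = 1.5e-05). The adaptor gene Sav1 and the kinase gene Lats2 were lower (log2 -0.44, limma adjusted p = 0.000574, and log2 -0.56, limma adjusted p = 0.00341).

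A published signature of Yap and Taz targets, less the members above, gave 18 further genes, of which 17 passed the filter. From GM to DM3, 7 rose and 1 fell in control cells, 7 rose in MUNC spliced cells, and 5 rose and 1 fell in MUNC genomic cells. Of all tested genes 58.2%, 35.6% and 51.4% were called in these comparisons, with 29.6%, 17.2% and 26.3% higher. The median log2 changes of the list were 0.31, 0.26 and 0.13, beside 0.02, -0.01 and 0.02 over all tested genes. The secreted matrix gene Ccdc80 rose in control cells by a log2 1.77 (limma adjusted p = 0.000315) and the stress gene Gadd45a by 1.65 (limma adjusted p = 0.00716), while Crim1 fell (log2 -0.65). Against control DM3, 7 were higher and 3 lower in MUNC spliced DM3 (median -0.04), and 3 were higher and 5 lower in MUNC genomic DM3 (median 0.01), where 43.3% and 40.3% of all tested genes were called.

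Individual targets in this signature differed in opposite directions. The growth factor gene Tgfb2 stood at 115 ± 19.4 FPM (SD, n = 3) in MUNC spliced DM3 against 15.6 ± 1.71 FPM in control DM3 (log2 2.80, limma adjusted p = 5.56e-08). Igfbp3, a binding protein for insulin-like growth factors, had no reads in control GM and stood at 8.98 ± 2.24 FPM in MUNC spliced GM, at least 169-fold higher than the limit of 3 reads. The tissue factor gene F3 stood at 49.3 ± 1.89 FPM in MUNC spliced DM3 against 272 ± 30.4 FPM in control DM3 (log2 -2.44, limma adjusted p = 4.48e-05), and Dock5, an activator of Rac, was lower by a log2 -1.30. Ccdc80 was lower in MUNC genomic DM3 (132 ± 14.6 against 388 ± 111 FPM; log2 -1.51, limma adjusted p = 0.0019). Dock5 was also lower there (log2 -1.17), and the kinase gene Nuak2 was higher (log2 0.96, limma adjusted p = 0.00131). Myotube markers summed to 95 to 484 FPM in the same MUNC spliced DM3 libraries, carried unevenly by the markers as given above, and to 0.883 to 1.01 FPM in control DM3. The endothelial marker Cdh5 stood at 4.20 ± 0.682 FPM in MUNC genomic DM3 and at 0.110 ± 0.110 FPM in control DM3, while Pecam1, the other endothelial marker, stood at 0.0656 ± 0.0685 and 0.158 ± 0.0625 FPM. The part of either in these differences was not tested.

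**Figure D5:**
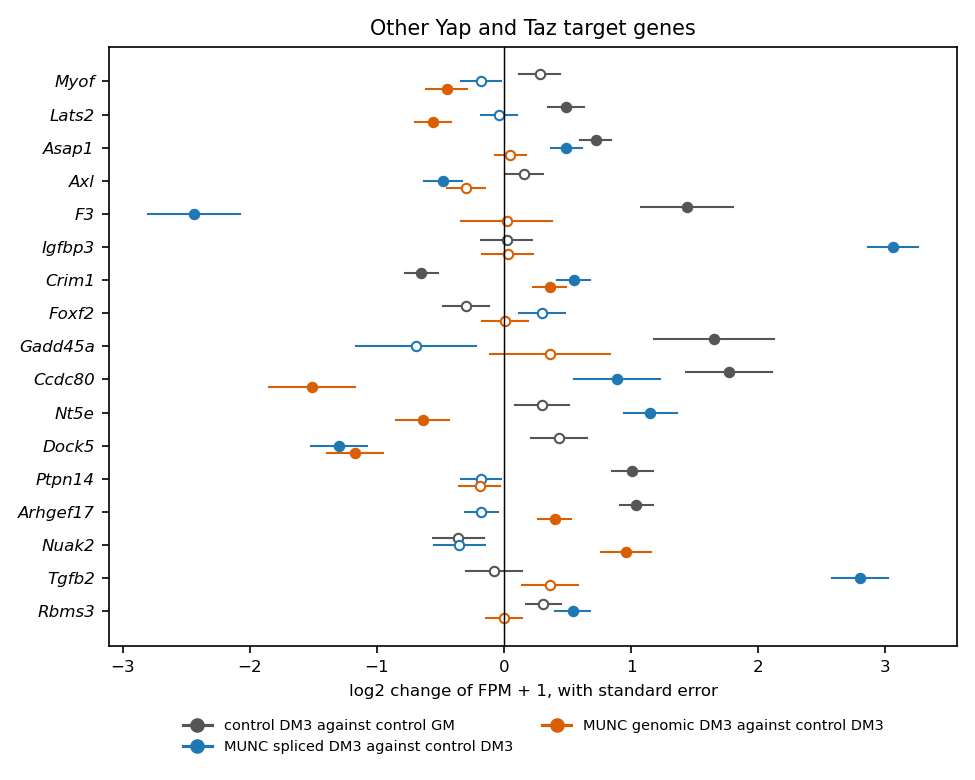
Log2 change of FPM + 1, with its standard error, of the 17 further Yap and Taz target genes that passed the filter, for control DM3 against GM and for MUNC spliced and MUNC genomic DM3 against control DM3; filled points passed an adjusted p of 0.05. Igfbp3 and Tgfb2 lie at 3.06 and 2.80 in MUNC spliced DM3, and F3 lies at -2.44.

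Serum response factor and actin genes, which answer to serum and tension as Yap targets do, made up a list of 12, of which 2 rose and 2 fell from GM to DM3 in control cells, where 29.6% of all tested genes were called higher and 28.6% lower. The actin-binding gene Tagln went from 258 ± 118 FPM to 49.2 ± 17.3 FPM (log2 -2.31, limma adjusted p = 0.000387). Cnn1 fell too (log2 -1.27, limma adjusted p = 0.00452), a call lost with a pseudocount of 0.1, with edgeR and with DESeq2. Myl9 rose by a log2 1.07 (limma adjusted p = 0.00157) and the focal-adhesion gene Vcl by 0.60 (limma adjusted p = 0.00722). In MUNC genomic DM3, 6 were higher and 1 lower than in control DM3 (19.3% and 20.9% of all tested genes), with a median log2 difference of 0.46 beside -0.01 over all tested genes. The smooth-muscle actin gene Acta2 stood at 2608 ± 724 FPM there and at 1234 ± 72.4 FPM in control DM3 (log2 1.05, limma adjusted p = 0.00202). Its level in MUNC spliced DM3 was 2247 ± 683 FPM. In MUNC spliced DM3, 1 was higher and 4 were lower (median -0.32), where 22.3% and 21.0% of all tested genes were.

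Genes whose levels were most like those of a member were found by Pearson's r of log2(FPM + 1) over the 18 libraries, which share their groups and scaling, among 10377 genes averaging at least 5 FPM. The highest for Tead2 were Adssl1 (r = 0.971), Ubash3b (0.949) and Fblim1 (0.945), and for Tead3 Clip3 (0.948), Zbtb4 (0.946) and Stau1 (0.944). Those for Wwtr1 were Lmbrd1 (0.967), Rab33b (0.960) and Ginm1 (0.956), and for Yap1 Ate1 (0.941). For the target genes they were Nap1l4 for Ctgf (0.907), Pigk for Cyr61 (0.855), Aldh4a1 for Ankrd1 (0.803; Tagln had 0.754) and Dync1li2 for Amotl2 (0.931). None of the closest genes to Ctgf, Cyr61, Ankrd1 or Amotl2 was another of the 10.

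The authors' deposited tables gave the same call for 45 of 50 combinations of a gene and a comparison. In the authors' deposited table Tead1 was not called from GM to DM3 in control cells (log2 fold change 0.29, adjusted p = 0.23 from DESeq2), nor was Yap1 in MUNC spliced against control DM3 (-0.27, adjusted p = 0.149 from DESeq2). The authors' deposited tables called Cyr61 lower in MUNC spliced than in control GM (-0.51, DESeq2 adjusted p = 0.0196). They also called Ankrd1 and Amotl2 higher in MUNC genomic than in control DM3 in the authors' deposited table (0.40 and 0.37, DESeq2 adjusted p = 0.0124 and 0.00751).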

How the data were processed

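Polyadenylated RNA of 18 libraries was sequenced, and the titles gave each library its group; the myoblast or myotube label contradicts 9 titles and was set aside. The deposited signal is FPM, reads per gene over a size factor. A label calls it FPKM, but all values were whole multiples of 1 step per library, and dividing by it gave whole reads for 100% of values within 0.05 of a read. The deposited tables of the authors' own comparisons hold log2 fold changes, p-values and, as scores, mean levels and test statistics (not used), per the file headers. The submitters' processing notes name STAR, HTSeq, DESeq2 and mm10; versions and the annotation are not given in the sources used here. Coordinates and exon lengths come from GENCODE M21 and promoters from RefSeq, both on GRCm38.

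The test was limma 3.58.1 under R 4.3.3 (functions lmFit, contrasts.fit and eBayes, trend on, two-sided), applied to log2(FPM + 1) in 1 fit of all 18 libraries with a mean per group (12 residual degrees of freedom), covering the 13869 genes that had 0.5 FPM in no fewer than 3 libraries. A call is a Benjamini-Hochberg adjusted p under 0.05 over all of them. Alternatives were pseudocounts of 0.5 and 0.1, no filter, equal sums per library, quantile normalization, only the groups compared, the replicate number as a block, edgeR 4.0.16 and DESeq2 1.42.0 on the recovered reads, and each library left out. The procedure was also run on simulated data with few changed genes and libraries drawn independently. Those settings differ from the data, so that run does not show how reliable the calls above are. For a gene without reads the limit is 3 reads, and such limits cover counting error only. The members, lists and tests were chosen with earlier results of these data known. From each list, up to the 2 largest called rises and falls per comparison with at least 5 FPM in the higher group could be named, and for likeness the 3 genes highest in r. Not every gene that met this rule is named. Lats2 and Ptpn14 stand in 2 lists. Vgll1 and others without reads were named as such after their values were seen.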

Additional observations from a re-analysis of the deposited data

Results flagged for a closer look

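The change from GM to DM3 differed between MUNC and control cells for a pair of genes, by a test of the difference itself. Among all tested genes the same test called 14.4% for MUNC spliced and 8.81% for MUNC genomic cells. Tead2, which rose in control cells, changed less in MUNC spliced cells by a log2 -0.90 (limma adjusted p = 0.00154) and less in MUNC genomic cells by a log2 -0.63 (limma adjusted p = 0.0131). Ankrd1, which fell in control cells, differed in MUNC spliced cells by a log2 0.94 (limma adjusted p = 0.0356). The Ankrd1 call held in 6 of 12 fits that left out 1 library. It was lost without a low-value filter, under quantile normalization and in a fit of those groups alone.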

How the results depend on the processing

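Of the 110 combinations of a gene and a comparison, 43 were called; 34 of these were called under every alternative that kept all replicates and 26 also in every fit that left out 1 library. Pseudocounts of 0.5 and 0.1 changed no call. The count of called genes for MUNC genomic against control GM went from 1 to 2 under equal sums per library, with DESeq2 and with the replicate number as a block. For the difference in the GM to DM3 change it went from 2 to 1 for MUNC spliced cells without a filter, under quantile normalization and with only the groups compared, and to 3 with DESeq2 and with the replicate block, and from 1 to 2 for MUNC genomic cells with DESeq2 and with the replicate block. With 1 library left out, the counts ranged from 2 to 4 for MUNC spliced against control GM, 2 to 3 for MUNC spliced against control DM3, 2 to 5 for MUNC genomic against control DM3, 3 to 5 and 2 to 4 for MUNC spliced against MUNC genomic cells in GM and DM3, and 1 to 3 and 1 to 2 for the differences in change of MUNC spliced and MUNC genomic cells. The counts from GM to DM3 moved too. In control cells Tead1 and Amotl2 both lost their call without replicate 2 of control DM3 or replicate 1 of control GM. In MUNC spliced cells Wwtr1 lost its call in some of these fits, and Tead4 gained one without replicate 1 of MUNC spliced DM3. Some values near 0 changed sign. The control change of Cyr61 ranged from -0.02 to 0.30 with 1 library left out. The difference of Amotl2 between MUNC genomic and control GM, -0.15, ranged from -0.38 to 0.07 in the same way. The change of Ankrd1 in MUNC genomic cells was -0.03 under quantile normalization, -0.01 with edgeR and -0.12 to 0.12 with 1 library left out. The difference of Yap1 between MUNC spliced and control GM, -0.11, was 0.0 under equal sums. The cause was not tested.

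The labels do not say that a replicate number marks a shared batch. Same-numbered libraries of different groups deviated from their group means with r from -0.0569 to 0.727 (median 0.291, 45 pairs), and 17 of 18 libraries correlated best with their own number, a hint from the data and not the design. With the replicate block 104 of the 110 combinations kept their side of the threshold and 6 more passed, all from 3 genes. They were Ctgf for both differences in change (limma adjusted p = 0.0247 and 0.0422), Tead2 for MUNC genomic against control GM (limma adjusted p = 0.0474), and Yap1 for MUNC spliced DM3 against GM (limma adjusted p = 0.0344) and for MUNC spliced against MUNC genomic cells in GM and DM3 (limma adjusted p = 0.0189 and 0.0368). Every gene had at least 254 reads in every library.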
